A study of Mus musculus with 6 samples.

Results

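The genes described here carry the signals of vascular endothelial growth factor (VEGF) and of the angiopoietins in the glomerulus. They are 5 ligand genes (Vegfa, Vegfb, Vegfc, Angpt1 and Angpt2) and 5 genes of the receiving side (the receptor tyrosine kinases Kdr, Flt1, Tek and Tie1, and the receptor phosphatase Ptprb). All probe sets that the array annotation gives to exactly 1 of these genes were taken, which gave 20 of the 45101 probe sets of the array, and 10 of the 18194 genes that have a probe set of their own. No probe set was shared between one of these genes and another gene. Glomeruli were isolated from 3 dendrin knockout mice and from 3 wild type littermate control mice, all 13 months old and of a 129S6SvEv/C57BL6 background by their labels, with 1 array for the RNA of each mouse. In the knockout line, made from a targeted embryonic stem cell line, the whole coding sequence of dendrin (Ddn) was replaced in all cells by a cassette with eGFP and a neomycin resistance gene. The control mice carried neither the deletion nor the cassette, and the methods describe backcrosses of the line to C57BL/6. Values are log2 GCRMA values of probe sets, which cannot be compared in level between one probe set and another.

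Podocytes, the epithelial cells on the outer side of the glomerular capillary, make VEGF-A, which crosses the basement membrane and acts on the capillary endothelium. The endothelium binds it with VEGF receptor 2 (Kdr), the main signalling receptor, and with VEGF receptor 1 (Flt1), which binds VEGF-A tightly but signals weakly and also exists in a soluble form that captures the ligand. Angiopoietin 1 (Angpt1) activates the endothelial receptor Tie2 (Tek) and stabilizes vessels, angiopoietin 2 (Angpt2) can oppose it, Tie1 is the partner of Tek, and the phosphatase VE-PTP (Ptprb) removes phosphate from Tek.

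Ddn was read first as a check of the labels. Its value was 3.80, 3.81 and 3.80 in knockout mice 1, 2 and 3, against 12.22, 12.81 and 12.31 in control mice 1, 2 and 3. The knockout values lie in the dim range defined next, so that the difference is a bound, at least 349-fold lower in knockout mice against that limit, and every array fits its genotype. Control 2 stood apart from the other arrays in markers of tubule cells and leukocytes, and in immediate early and stress genes. The stress list was kept as a sign of handling and RNA quality, not of tissue composition. Genes of the distal nephron (thick ascending limb to collecting duct) lay there 1.36 above their mean over the 6 arrays, genes of the proximal tubule 1.12 above it, and immediate early and stress genes 1.47 above it, while leukocyte genes were at -1.80. Of all probe sets, 56.5% had a mean under log2 4 and are called dim, because GCRMA leaves probe sets without signal near a common floor.

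All 5 genes of the receptor side had lower means in knockout glomeruli, by less than 1.5-fold, 3 of them with an unadjusted p under 0.05 and none with an adjusted one (limma, Benjamini-Hochberg), and no ligand gene separated the groups. Where a gene has several probe sets, the one of highest mean stands for it. The differences of the receptor side (knockout minus control) had a median of -0.18 and a range of -0.23 to -0.17. Of the 5 ligand genes 4 had a positive and 1 a negative difference, with a median of 0.06. Over all 19619 probe sets above the dim range the median difference was 0.02, the median size of a difference was 0.090, and 44.8% of the differences were below 0. None of the 20 probe sets passed the criterion of a fold over 1.5 with an unadjusted p under 0.05, which 81 probe sets (0.18% of the array) passed. None passed an adjusted p of 0.05 (limma, Benjamini-Hochberg over all probe sets), which only Ddn passed (0.00222%). The smallest adjusted p among the 20 was 0.96. With limma, 8 of the 20 had an unadjusted p under 0.05, all of them of the receptor side and all lower in knockout glomeruli, where 3.21% of those above the dim range were lower and 4.91% higher at that threshold. With SAM, the test of the study methods, no corrected p could be under 0.083, so that no probe set could pass 0.05 there. The same 8 were under an unadjusted p of 0.05 with SAM. For groups of 3 the two-sided exact permutation test has no p below 0.1.

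**Figure D1:**
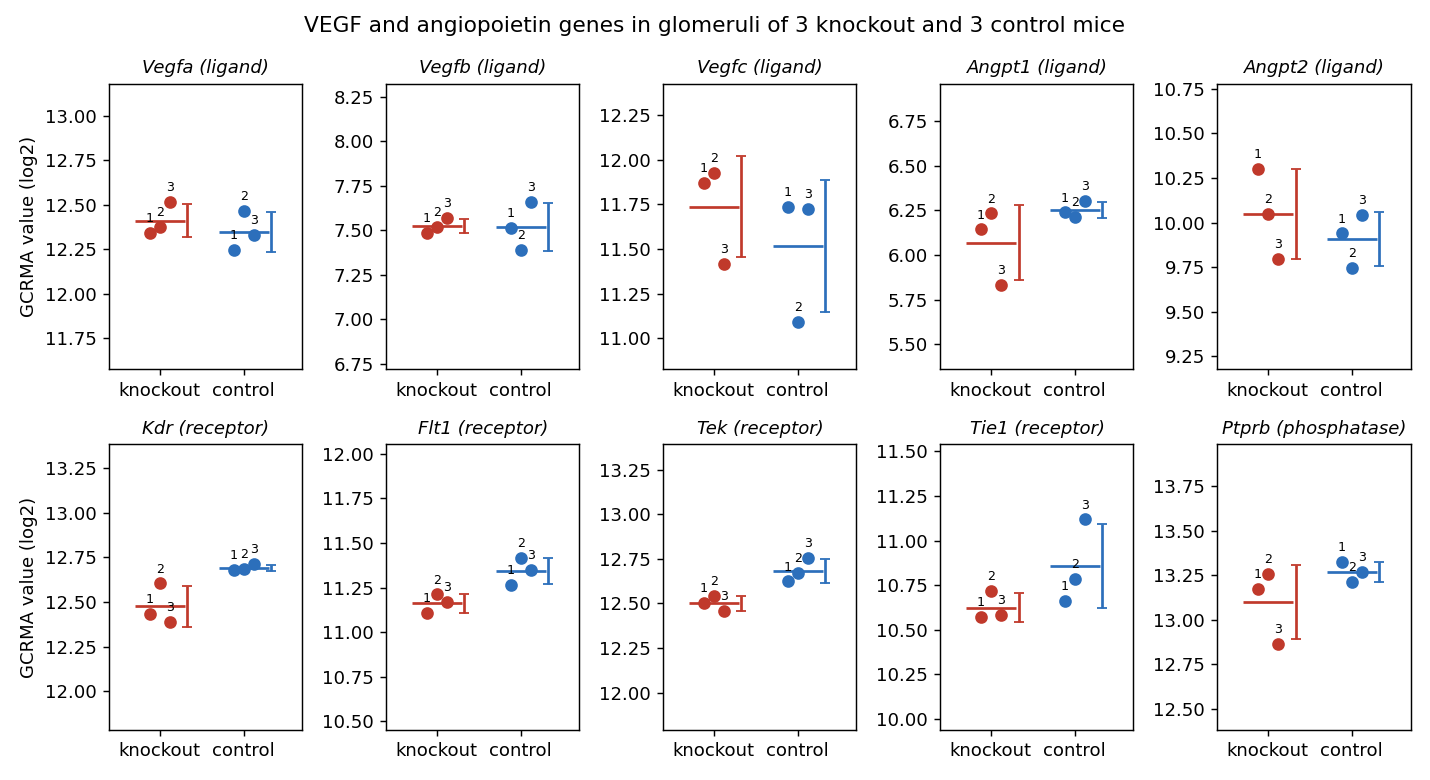
GCRMA value (log2, y axis, each panel spanning the same 1.6 units) of the probe set with the highest mean of each gene in 3 knockout mice (red, left) and 3 control mice (blue, right). Points are mice with their replicate number, lines are means and bars are SD. The groups are apart for Kdr, Flt1 and Tek, and overlap for the 5 ligand genes, Tie1 and Ptprb.

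Kdr, which encodes VEGF receptor 2, is represented by 1 probe set. It read 12.43, 12.60 and 12.39 in knockout mice 1, 2 and 3, against 12.68, 12.69 and 12.71 in control mice 1, 2 and 3. All 3 knockout mice were below all 3 control mice, and knockout 2 came closest to control. The control mice were nearly equal, so that most of the spread was in the knockout group. The mean was 12.48 ± 0.11 in knockout and 12.69 ± 0.016 in control glomeruli (SD, n = 3 each). The difference of -0.22 (standard error 0.064) is a change of -14.0%, with a 95% confidence interval of -23.8% to -3.02% (limma, unadjusted p = 0.025, adjusted p = 1).

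Flt1, which encodes VEGF receptor 1, is represented by 4 probe sets, and all 4 placed every knockout mouse below every control mouse. At the probe set with the highest mean (1419300_at) the knockout mice read 11.11, 11.21 and 11.17, against 11.27, 11.42 and 11.35 in the control mice. The difference there was -0.18 (standard error 0.051), the smallest of the 4. At 1451756_at the knockout mice read 9.34, 9.64 and 9.50, against 9.89, 9.76 and 9.87 in the control mice, a difference of -0.35 (standard error 0.092). The other 2 probe sets had the larger differences. At 1440926_at the values were 7.66, 7.83 and 7.80 in knockout, against 8.18, 8.08 and 8.45 in control mice, a difference of -0.47 (standard error 0.12). At 1454037_a_at they were 7.70, 7.56 and 7.47 in knockout, against 8.18, 7.99 and 8.23 in control mice. The difference of -0.55 (standard error 0.096) is a change of -31.9% (95% confidence interval -43.1% to -18.5%) and had the smallest p of all 20 probe sets (limma, unadjusted p = 0.0035, adjusted p = 0.96). The 4 probe sets therefore share a direction but not a size, between changes of -11.8% and -31.9%. The annotation names a target sequence for each of them but not the transcript form of Flt1 that it reads. These values were therefore not assigned to the membrane-bound or the soluble form.

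**Figure D2:**
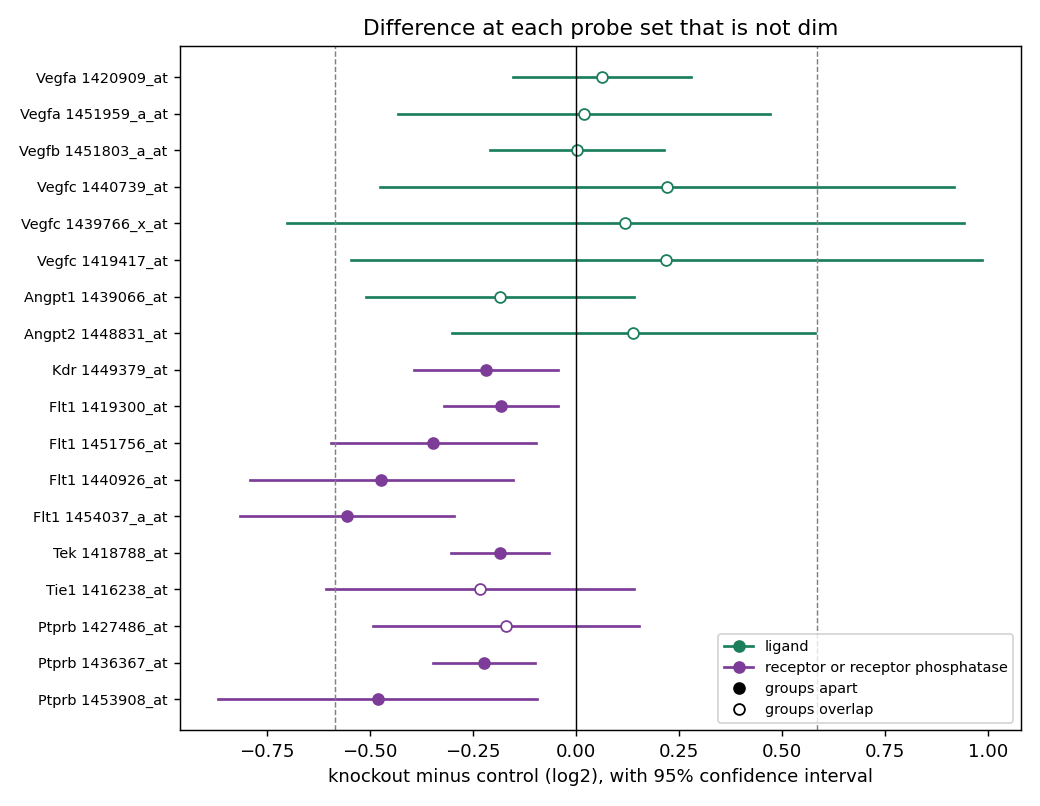
Difference between knockout and control (log2, x axis) with its 95% confidence interval from limma for the 18 probe sets above the dim range, ligands in green and the receptor side in purple. Filled points mark probe sets whose groups are apart, and dashed lines mark a 1.5-fold difference. All 10 probe sets of the receptor side lie left of 0, between -0.55 and -0.17.

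Tek, the angiopoietin receptor, had the smallest standard error relative to its difference among the 5 receptor genes at their representative probe sets. It read 12.50, 12.54 and 12.46 in knockout mice, against 12.62, 12.67 and 12.76 in control mice, so that the groups were apart. The mean was 12.50 ± 0.041 in knockout and 12.68 ± 0.068 in control glomeruli (SD, n = 3 each), a difference of -0.18 (standard error 0.044) or -12.0% (95% confidence interval -19.0% to -4.40%, limma unadjusted p = 0.012, adjusted p = 1). Tie1, its partner, read 10.57, 10.72 and 10.58 in knockout mice, against 10.66, 10.78 and 11.12 in control mice. Here knockout 2 lay above control 1, and control 3 was the highest array. The mean was 10.62 ± 0.080 in knockout and 10.86 ± 0.24 in control glomeruli (SD, n = 3 each). The difference of Tie1 was -0.23 (standard error 0.14, limma unadjusted p = 0.16), and -0.10 without control 3.

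Ptprb, the phosphatase that acts on Tek, is represented by 3 probe sets, which disagree in how well the groups separate. At the probe set with the highest mean (1427486_at) the knockout mice read 13.17, 13.26 and 12.86, against 13.32, 13.21 and 13.27 in the control mice. Knockout 2 lay within the control values there, and the difference was -0.17 (standard error 0.12, limma unadjusted p = 0.23). Without knockout 3, which had the lowest value, this difference was -0.05. At 1436367_at the values were 12.77, 12.88 and 12.77 in knockout, against 13.09, 13.00 and 12.99 in control mice, a difference of -0.22 (standard error 0.046, limma unadjusted p = 0.0069). At 1453908_at they were 8.96, 8.66 and 8.49 in knockout, against 9.29, 9.19 and 9.08 in control mice, a difference of -0.48 (standard error 0.14, limma unadjusted p = 0.025). The groups were apart at both of these.

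Counted over probe sets, 8 of the 10 of the receptor side had all knockout mice below all control mice, beside 5.65% of those above the dim range over the array. None of the 20 had all knockout mice above all control mice, beside 8.03%. Probe sets of 1 gene read the same RNA of the same mice and are not independent. Counted over genes with 1 probe set each, 3 of 5 (Kdr, Flt1 and Tek) were apart and 3 of 5 had an unadjusted p under 0.05 with limma. The second count was 1 without knockout 1, knockout 3 or control 3, and 2 without control 1 or control 2, all 5 genes keeping a negative difference each time. Without knockout 2, all 5 genes and all 10 probe sets were apart (beside 9.67% over the array), and the median difference of the genes was -0.25. Leaving out an array cannot make groups that are apart overlap or turn their sign, so that the number apart could only stay or rise.

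The promoters of the 4 receptor kinases are shown because these genes are used by the same cell type and all had a negative difference, although that of Tie1 did not separate the groups. RefSeq sequences (GRCm38.p6) of 250 bases before to 50 bases after the start were matched for 7 of the 10 genes, and those of Angpt1, Angpt2 and Ptprb were not matched. Each is given 5′ to 3′ on the strand of the gene, at chr5:75978406-75978705 (minus strand) for Kdr, chr5:147725962-147726261 (minus strand) for Flt1, chr4:94739039-94739338 (plus strand) for Tek and chr4:118489800-118490099 (minus strand) for Tie1. Capitals mark GGAA, the core that ETS factors bind, on either strand (TTCC where it lies on the other one). ETS factors such as Erg are known regulators of endothelial genes.
Kdr: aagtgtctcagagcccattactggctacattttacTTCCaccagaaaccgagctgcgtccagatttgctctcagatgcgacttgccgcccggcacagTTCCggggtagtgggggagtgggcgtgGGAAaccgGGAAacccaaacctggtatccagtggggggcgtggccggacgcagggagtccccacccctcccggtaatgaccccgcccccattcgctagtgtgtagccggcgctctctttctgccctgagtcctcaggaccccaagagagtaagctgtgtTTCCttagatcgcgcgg
Flt1: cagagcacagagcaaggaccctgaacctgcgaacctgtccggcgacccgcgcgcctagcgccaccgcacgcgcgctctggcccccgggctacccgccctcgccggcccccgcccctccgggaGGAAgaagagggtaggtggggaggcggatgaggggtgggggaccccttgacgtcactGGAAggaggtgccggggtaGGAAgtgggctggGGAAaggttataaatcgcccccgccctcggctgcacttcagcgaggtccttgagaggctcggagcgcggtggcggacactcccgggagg
Tek: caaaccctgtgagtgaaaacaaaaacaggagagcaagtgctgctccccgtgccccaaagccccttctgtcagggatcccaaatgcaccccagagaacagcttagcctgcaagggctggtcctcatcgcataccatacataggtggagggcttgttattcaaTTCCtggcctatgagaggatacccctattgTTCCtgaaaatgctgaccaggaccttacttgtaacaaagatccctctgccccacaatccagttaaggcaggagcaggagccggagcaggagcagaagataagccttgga
Tie1: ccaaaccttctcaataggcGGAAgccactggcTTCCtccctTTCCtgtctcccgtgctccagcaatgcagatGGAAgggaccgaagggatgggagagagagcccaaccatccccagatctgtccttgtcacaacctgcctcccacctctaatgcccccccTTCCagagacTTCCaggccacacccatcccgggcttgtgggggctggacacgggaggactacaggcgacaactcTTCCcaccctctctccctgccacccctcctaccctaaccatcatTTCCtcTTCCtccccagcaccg

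The core GGAA is common, and 96% of 32851 promoter windows of this length hold it at least once, with a median of 3. Tie1 holds 9, a number reached by 1.59% of the windows. Kdr holds 5 (28.6% of the windows hold as many), Flt1 4 (46.3%) and Tek 2 (84.6%). Among the ligand windows, which are not shown, those of Vegfa hold 6 (15.7%) and 3 (66.3%), and those of Vegfb and Vegfc 2 each (84.6%). The core therefore does not set the receptor kinases apart from the ligands. The palindrome TGACGTCA, the cAMP response element, occurs once in the Flt1 window and in 1.79% of all windows. The hypoxia response core GCGTG, searched on both strands, occurs 2 times in the Kdr window and 1 time in that of Flt1 (32.4% of all windows hold it). The Vegfb window holds it 2 times as well. ACGTG occurs in none of the 4 receptor kinase windows (19.6% of all windows hold it). These matches describe the letters of the windows and do not show that a factor binds there.

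The 5 ligand genes did not separate the groups. Vegfa, the main angiogenic ligand of the glomerulus, read 12.34, 12.37 and 12.52 in knockout mice, against 12.25, 12.46 and 12.33 in control mice, at the probe set with the highest mean (1420909_at). The values of the groups interleave, with a mean of 12.41 ± 0.092 in knockout and 12.35 ± 0.11 in control glomeruli (SD, n = 3 each). The difference of 0.06 (standard error 0.080) corresponds to 4.51%, and its 95% confidence interval runs from -10.0% to 21.4%, which holds no change of 1.5-fold in either direction. Its other probe set (1451959_a_at) read 9.64, 9.64 and 9.76 in knockout, against 9.43, 9.99 and 9.55 in control mice, with the highest value in control 2. Tubule genes and podocyte markers were highest on that array too, and their part in this value was not tested. Without control 2 the difference of 1420909_at was 0.12.

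Vegfb, a ligand of VEGF receptor 1, had equal means in both groups, 7.52 ± 0.041 in knockout and 7.52 ± 0.13 in control glomeruli (SD, n = 3 each). Its values were 7.49, 7.52 and 7.57 in knockout, against 7.51, 7.39 and 7.66 in control mice, and the 95% confidence interval of the difference was -0.21 to 0.21. The sign of this difference turned in several settings of the processing.

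Vegfc, which binds VEGF receptor 3 (Flt4) and is best known for the growth of lymphatic vessels, had the widest range over the 6 arrays of all 10 genes. At the probe set with the highest mean (1440739_at) it read 11.87, 11.93 and 11.41 in knockout, against 11.74, 11.09 and 11.73 in control mice. Knockout 3 and control 2 were the low arrays, and the other 4 lay close together. Both further probe sets had the same arrays lowest in their groups, with 10.62 and 10.51 in knockout 3 and 10.24 and 10.19 in control 2. The difference of 0.22 (standard error 0.26) had a 95% confidence interval of -28.1% to 88.9%, which is too wide to tell a lower from a higher level. Without control 2 it was 0.01, and without knockout 3 it was 0.38. Leukocyte genes were at -1.80 relative to their mean in control 2 and at 0.65 in knockout 3. Their part in these values was not tested.

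Angpt1 and Angpt2 each have 1 probe set with signal and 1 that is dim. Angpt1 (1439066_at) read 6.14, 6.23 and 5.83 in knockout, against 6.24, 6.22 and 6.30 in control mice. It was the only ligand gene with a negative difference, -0.18 (standard error 0.12, limma unadjusted p = 0.20), and without knockout 3 the difference was -0.06. Like Ddn, Angpt1 lies on chromosome 15 in the RefSeq annotation. Its dim probe set (1421441_at) was between 2.39 and 2.48 on all arrays. Angpt2 (1448831_at) read 10.30, 10.05 and 9.80 in knockout, against 9.94, 9.75 and 10.04 in control mice, a difference of 0.14 (standard error 0.16) with overlapping groups, and its dim probe set held the same value of 2.24 on all 6 arrays.

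The level of the receptor genes was also set against endothelial markers, and that of Vegfa against podocyte markers. In whole glomeruli, fewer endothelial cells and less receptor RNA per cell cannot be told apart. The defining endothelial genes were strongly present, Pecam1 between 11.83 and 12.15 in knockout and between 11.95 and 12.22 in control mice, and those of the podocyte too, Nphs1 averaging 12.85 in knockout and 12.61 in control. Of 16 measured endothelial markers (17 listed, members left out), the difference was negative for 14 and positive for 2, with a median of -0.07, which was -0.15 without control 2, -0.04 without knockout 3 and -0.03 without control 3. Mmrn2, an endothelial matrix protein, was lower by the most (12.73 in knockout, 13.04 in control, limma unadjusted p = 0.015) and Gata5, a transcription factor, next (9.62 in knockout, 9.85 in control). Emcn, an endothelial sialomucin, and Erg also had an unadjusted p under 0.05 and are named after their values were seen. The summed unlogged level of the list was 82967 to 89037 in knockout and 86751 to 93870 in control mice.

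The mean deviation of the 5 receptor genes from their 6-array means was -0.11, -0.004 and -0.18 in knockout mice 1, 2 and 3, against 0.04, 0.08 and 0.17 in control mice 1, 2 and 3. Every knockout array was below every control array. For the endothelial markers it was -0.04, 0.0002 and -0.10 in knockout mice, against 0.06, -0.05 and 0.12 in control mice, and the groups overlapped through control 2. After subtraction of the marker mean on each array, the receptor genes were at -0.08, -0.004 and -0.08 in knockout mice, against -0.02, 0.13 and 0.05 in control mice. These values overlap, and control 2 was the highest. How much of the lower receptor level goes with the endothelial content of the preparations was not tested beyond these values.

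The 5 ligand genes were at 0.09, 0.09 and -0.11 in knockout mice, against 0.0004, -0.15 and 0.08 in control mice, with no separation. Receptor genes minus ligand genes on the same array gave -0.21, -0.09 and -0.07 in knockout mice, against 0.04, 0.24 and 0.09 in control mice. The difference of the sides was thus below 0 in all knockout and above 0 in all control arrays, a description for which no test is given. All 12 measured podocyte markers (15 listed) had a positive difference, median 0.13, none under an unadjusted p of 0.05 with limma. The largest differences were those of the transcription factor Lmx1b (0.37, standard error 0.18) and of Nphs1, which encodes nephrin (0.24, standard error 0.12). On control 2 the mean of these markers was above that of every knockout array. Their median was 0.25 without control 2, 0.08 without control 1 and 0.08 without control 3. Relative to the podocyte markers on the same array, Vegfa was at -0.04, -0.12 and 0.05 in knockout mice, against 0.04, -0.07 and 0.14 in control mice, which overlap.

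**Figure D3:**
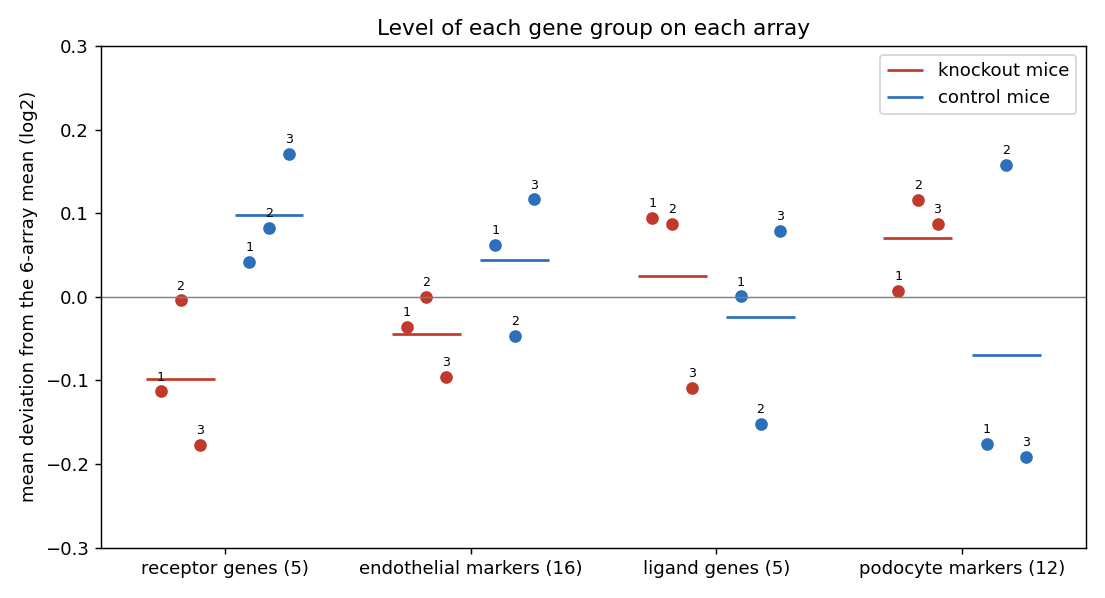
Mean deviation of a gene group from its mean over the 6 arrays (log2, y axis) for the receptor genes, endothelial markers, ligand genes and podocyte markers (number of genes in brackets), in knockout mice (red, left) and control mice (blue, right). Points are arrays with their replicate number and lines are group means. The receptor genes are the only one of these 4 groups in which all knockout arrays lie below all control arrays.

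Markers of other cells were followed as well. The proximal tubule, leukocyte and stress lists turned direction without control 2. Of 11 mesangial and smooth muscle genes 8 were higher in knockout glomeruli (6 without control 2, 5 without knockout 2 or control 3), led by the contractile genes Tagln (0.68, standard error 0.24) and Acta2 (0.44, standard error 0.19), with a summed unlogged level of 49846 to 52040 in knockout and 47730 to 52775 in control mice. All 11 genes of the distal nephron, 6 of them dim, were lower (6 lower and 3 higher without control 2, median -0.01), with a summed level of 2872 to 3972 in knockout and 2893 to 13416 in control mice, where control 2 was the highest. Their largest differences were those of Calb1, which encodes calbindin (-1.36, standard error 1.08), and of the transporter gene Slc12a3 (-1.23, standard error 1.06). Of 12 proximal tubule genes 10 were lower, but 11 were higher without control 2 (summed level 1869 to 3142 in knockout and 841 to 5199 in control), with Slc5a2 at -0.51 and Kap at 0.47. Of 15 leukocyte genes 13 were higher, but 13 were lower without control 2 (summed level 27491 to 48328 in knockout and 9185 to 47569 in control), led by the complement genes C1qc (1.24, standard error 1.33) and C1qa (0.999, standard error 1.18). All 8 immediate early and stress genes were lower, but 5 were higher without control 2 (summed level 9416 to 20225 in knockout and 9736 to 37865 in control), among them Atf3 (-0.85, standard error 0.83) and Hspa1a (-0.77, standard error 0.86). Of 3 parietal genes only Cldn1 was not dim (0.74, standard error 0.28), and the summed level of the 3 was 145 to 241 in knockout and 90.0 to 129 in control mice. Apart from these sums, their part in the receptor values was not tested. The median of the receptor genes was -0.20 without control 2, the array on which the tubule, leukocyte and stress lists were farthest from the rest.

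The wider pathway was read from 60 further genes grouped by role, of which 56 had a probe set of their own and 51 were not dim. With limma 2 were lower (Nrp1 and Epas1) and 1 was higher (Map2k1) at an unadjusted p under 0.05. Of all probe sets above the dim range, 3.21% were lower and 4.91% higher at that threshold, so that these counts do not stand out from the array. None of the 56 passed an adjusted p of 0.05 or the criterion with the fold. The median difference of the 56 was -0.01. Among the further ligands, Pgf, which encodes placental growth factor, was at -0.50 (standard error 0.36) and the gene of VEGF-D (Vegfd) at 0.20 (standard error 0.35).

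Of 6 further receptors and partners 5 were lower. Nrp1, the co-receptor of VEGF receptor 2, read 14.06, 14.07 and 14.10 in knockout mice, against 14.12, 14.19 and 14.18 in control mice. The groups were apart, but the difference was only -0.09 (standard error 0.022, limma unadjusted p = 0.015, adjusted p = 1). Flt4, the receptor of VEGF-C, which fenestrated endothelium also expresses, was at -0.26 (standard error 0.14) with 8.96, 9.34 and 9.27 in knockout mice, against 9.35, 9.39 and 9.60 in control mice. The groups were apart by a narrow margin between knockout 2 and control 1. Of 5 measured markers of lymphatic endothelium all but Flt4 were dim, Prox1 and Lyve1 among them, and the summed level was 516 to 669 in knockout and 673 to 796 in control mice, a sum that Flt4 makes up almost alone.

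Among 8 regulators of Vegfa expression, Epas1, which encodes the hypoxia-inducible factor HIF-2α and is abundant in endothelium, was at 14.30 in knockout and 14.37 in control glomeruli, a difference of -0.08 (standard error 0.023, limma unadjusted p = 0.027). Of 17 measured genes of signal transduction 8 had a negative and 8 a positive difference. Map2k1, a kinase of the MAP kinase cascade, was higher by 0.08 (standard error 0.020, limma unadjusted p = 0.011). Of 13 endothelial genes known to respond to VEGF, Tie2 or Foxo1, 7 had a negative and 6 a positive difference, with a median of -0.03. None passed an unadjusted p of 0.05 with limma. The largest differences, those of the apelin receptor Aplnr (0.67, standard error 0.85) and the nuclear receptor gene Nr4a1 (0.49, standard error 0.60), were below their standard errors. Dll4 (-0.33, standard error 0.13) and Rcan1 (0.23, standard error 0.088) had smaller standard errors and are named after their values were seen. Of 9 measured genes in the list of inhibitors and feedback none passed either. The phosphatase gene Dusp5 was at 0.49 (standard error 0.59). Svep1, which encodes a large extracellular matrix protein, was at 0.29 (standard error 0.17), and its place in this list is not meant to call it an inhibitor.

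**Figure D4:**
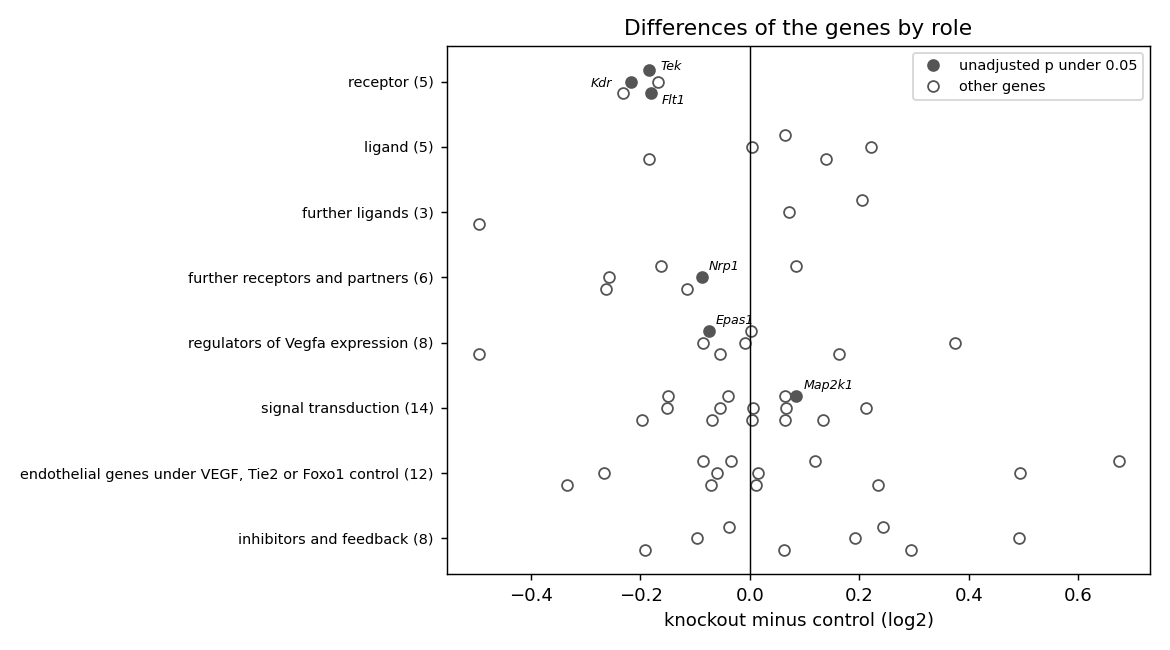
Difference between knockout and control (log2, x axis) of the member genes and of the 51 further pathway genes that are not dim, by role (number of genes in brackets). Each point is 1 gene, and filled points had an unadjusted p under 0.05 with limma. At their probe sets of highest mean the 5 receptor genes lie from -0.23 to -0.17. Other probe sets of Flt1 and Ptprb, not drawn here, reach -0.55 and -0.48. Every other role drawn has genes on both sides of 0. Of 16 endothelial markers, also not drawn, 14 were lower and 2 higher.

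The genes most like Vegfa and Kdr over the 6 arrays were taken from 4936 genes with a mean of at least log2 6 and a range of at least 0.3. For Vegfa they were Zfp763, Cebpd and Ppp1r3c (Pearson r between 0.97 and 0.98), and for Kdr they were Yae1d1, Prkce and Fzd6 (r between 0.97 and 0.99). These are the highest of 4936 values from 6 arrays that share their groups, and are given as a description with no test.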

How the data were processed

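Affymetrix whole-genome mouse arrays, 1 per mouse, were processed by the authors with GCRMA (version 2.30.0 per the labels), which subtracts background by probe sequence, quantile normalizes the arrays and summarizes probes, so that the deposited values are log2 intensities and not counts. Raw intensities, scan dates and probe sequences were not used here. Background at the floor compresses differences of weak probe sets. Array data hold no depth, and the number of arrays limits the precision.

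Probe sets were named from the platform annotation. Of 45101 probe sets, 34958 name a single gene. Groups follow the genotype labels. Knockout and control were compared with limma (version 3.58.1, R 4.3.3), lmFit and eBayes, two-sided, on all probe sets without filter or covariate, with Benjamini-Hochberg adjustment over all of them. The residual degrees of freedom were 4 and those of the prior 0.312, and 16139 probe sets were constant. The test was checked on simulated data. The labels name the samples of a group as biological replicates.

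Named were all members, Ddn, pathway genes under an unadjusted p of 0.05 that were not dim (otherwise the 2 largest differences), the 2 largest differences of each marker list, and the 3 genes most like Vegfa and Kdr. Members and lists were chosen with earlier results of these data known. Alternatives were SAM (p values pooled over 20 groupings), a trend with robust prior, filters on the mean or span, median centring, quantile normalization, an offset of 16, the replicate number as a block, weights per array, other choices of probe set, a fold over 2 and the omission of each array, which for the marker lists was added after seeing the data.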

Additional observations from a re-analysis of the deposited data

How the results depend on the processing

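The differences of Vegfa, Vegfc, Angpt1, Angpt2 and the 5 receptor genes kept their sign in all settings tried for them. The trend with robust prior, the filters and the replicate block leave each difference as it was. Its sign could not turn in those settings, which bear only on the p values. That of Vegfb was 0.003 and turned to -0.0078 with quantile normalization, -0.014 with array weights, -0.019 without knockout 3, -0.001 without control 1 and -0.061 without control 2, and it was 0.073 without control 3. With 1 array left out in turn, the median of the receptor genes ran from -0.25 to -0.17, that of the ligand genes from 0.01 to 0.08, the number of receptor genes lower at an unadjusted p under 0.05 from 1 to 3, the number with groups apart from 3 to 5, the probe sets past the fold criterion from 78 to 140, those at an adjusted p under 0.05 from 1 to 7, and the difference of Ddn from -8.76 to -8.46. The adjusted p of Ddn passed 0.05 only without control 2 among these. Groups that are apart stay apart when an array is left out, so that their number could not fall. The fits without an array rest on fewer degrees of freedom. Kdr was under an unadjusted p of 0.05 in 10 of 16 settings, Flt1 in 13, Tek in 15 and Ptprb in 2, those with other choices of its probe sets. Kdr was over it with the replicate block and on omission of any array but knockout 2. Kdr and Tek have 1 probe set each, so that these choices of probe set only repeat their main result. With these choices the median of the receptor genes was -0.23. At an adjusted p of 0.05 SAM counted 0 probe sets, with 2336 at an unadjusted p under 0.05 against 1636 with limma, and no corrected p could be under 0.083. Probe sets past the fold criterion numbered 141 with the filter on the span and 14 with a fold over 2. For Kdr, Flt1 and Tek the adjusted p with limma ran from 0.096 (with median centring) to 1 over all settings, and was 0.60 to 0.74 with the filters, which test fewer probe sets. Centring on the medians, which lie in the dim range, added 0.019 to all differences. It also made the 16139 constant probe sets differ between arrays, all by the same shift, which changes the adjustment over all probe sets. The unadjusted p of Kdr was 0.026 there and 0.025 as reported (limma), so that the 0.096 does not come from a clearer difference of Kdr. Replicate numbers were not taken as pairs, because no source links same-numbered mice and 1 of the 3 correlations of their deviations (0.095, 0.35 and 0.25) was not over 0.1. Every mouse nevertheless correlated best with its own number, other pairs running from -0.32 to 0.094, a hint from the data and not from the design. With the replicate block, 1 receptor gene was lower at an unadjusted p under 0.05, and Ddn at -8.64 no longer passed an adjusted p of 0.05.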
